A study of Homo sapiens with 30 samples.

Results

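Untreated KARPAS-299, a cell line of anaplastic large cell lymphoma (ALCL), was compared with the 4 other malignant T-cell lines of the same array series. Its 3 arrays were set against 12 arrays of untreated HD-MAR-2 and JURKAT (T-cell leukaemia), SUP-T1 (lymphoblastic T-cell lymphoma) and HH (cutaneous T-cell lymphoma), out of 30 arrays in all. The other 15 arrays hold the same lines after 24 h with CHOEP, a mixture of cyclophosphamide, doxorubicin, vincristine, prednisone and etoposide. All cultures grew in RPMI medium with fetal bovine serum, and the submitters describe the 3 samples of each line as biological replicates, so that p-values measure the spread among cultures of 1 line. KARPAS-299 is the only ALCL line here, so what belongs to the disease and what belongs to this line cannot be told apart. Each line was also hybridised on a chip of its own, so line and chip cannot be told apart either.

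KARPAS-299 carries a fusion of the nucleolar protein NPM1 with the receptor tyrosine kinase ALK. The fusion kinase signals without a ligand, and the transcription factor STAT3 is one of the proteins that it is known to activate. ALCL is a tumour of mature T cells that typically displays the activation receptor CD30, contains proteins of cytotoxic granules, and has lost much of the T-cell receptor apparatus. Leukaemias and lymphoblastic lymphomas of T cells, by comparison, keep many features of thymocytes, the immature T cells of the thymus.

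Levels are normalised log2 signals, on which a difference of 1 is a 2-fold change, and the level of one probe is not compared with that of another. A gene was called when its fold change was at least 2 and its limma adjusted p was under 0.05 against each of the 4 other lines. Of 11955 genes tested, 730 (6.11%) were higher and 336 (2.81%) lower in KARPAS-299 than in each other line. The lower count was 169 on the authors' log2 values and 162 without background correction, where the higher counts were 596 and 583. Against single lines 2095 genes (17.5%) were higher and 2378 (19.9%) lower than in HD-MAR-2. The counts were 2112 (17.7%) and 2471 (20.7%) against SUP-T1, 1756 (14.7%) and 1919 (16.1%) against JURKAT, and 1858 (15.5%) and 1651 (13.8%) against HH. These 4 comparisons share the KARPAS-299 arrays. The same rule, applied to each other line in turn, gave 569 higher and 399 lower genes in HH, 374 and 151 in JURKAT, 370 and 239 in SUP-T1, and 337 and 140 in HD-MAR-2.

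Many of the differences lay between a signal and none. Of the 730 higher genes, all were detected on the 3 KARPAS-299 arrays, and 277 were not detected on any of the 12 arrays of the other lines. These 277 passed the detection filter (at least 3 of the 15 untreated arrays) through KARPAS-299 alone. Shares of higher genes depend partly on that filter. Of the 336 lower genes, 134 were not detected on any KARPAS-299 array and were detected on all 12 others. A fold change against a line without detection is therefore given as "at least", with the lowest signal among detected probes of each array in place of an undetected value below it. The smallest of the 4 differences, so bounded, was at least 8-fold for 147 higher and 19 lower genes and at least 32-fold for 35 and 7. The median of KARPAS-299 minus the mean of the 4 line means was -0.13 over all genes tested. Between 16183 and 16394 probes were detected on the KARPAS-299 arrays and between 16003 and 17923 on those of the other lines. Each of the 30 arrays correlated best with an array of its own line.

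ALK, the defining gene of the line, had levels of 13.09, 12.98 and 12.90 on the 3 KARPAS-299 arrays, against a lowest, median and highest level of 5.43, 5.80 and 6.37 on the 12 arrays of the other lines. The groups lay far apart, and only 1 of the 12 other arrays, from JURKAT, had a detected signal. The difference was at least 101-fold from the nearest line (largest limma adjusted p of the 4 comparisons 5.22e-15). The probe does not tell the fusion from full-length ALK. TNFRSF8, which encodes CD30, went against the label: its levels of 6.03, 5.91 and 5.97 were not detected in KARPAS-299, whereas HH averaged 7.4 ± 0.25 (SD, n = 3) and was detected on all 3 arrays. It was read by 1 probe, whose match to the transcript was not tested, so the lack of detection does not show that the line lacks CD30 mRNA.

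Of 20 tested genes known to be high in ALK-positive ALCL, 10 (50%) were higher in KARPAS-299 than in each other line. The share over all genes was 6.11%, 0 of the 20 were lower, and the median difference from the mean of the 4 lines was 3.54. Of the list 25 had a probe, and those that failed the detection filter were not tested. Of the 20 tested, 2 were not detected on any KARPAS-299 array. SERPINA1 and IL2RA passed the filter through KARPAS-299 alone. BATF, IL2RA, JUNB and PRDM1, among the 10, also belong to lists described further on. SERPINA1, the gene of the protease inhibitor alpha-1-antitrypsin, reached 13.51, 13.66 and 13.50, against 5.09, 5.42 and 5.86 (lowest, median and highest) in the other lines, where it was not detected. This was at least 150-fold, and all 4 of its probes were called. TIMP1, an inhibitor of matrix metalloproteases, averaged 15.57 ± 0.13 (SD, n = 3), against 10.14 ± 0.15 in HH, the next line. GAS1, a membrane protein first described in growth-arrested cells, averaged 14.21 ± 0.18, against 9.43 ± 0.11 in HD-MAR-2. The mucin MUC1 averaged 11.20 ± 0.09, against 7.02 ± 0.38 in SUP-T1, with all 3 probes called. IL1RAP, the shared chain of interleukin-1 receptors, had a mean of 11.45, with 7.95 in JURKAT as the nearest.

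Besides the 2 tested members without detection in KARPAS-299, some members of this list did not pass the rule because 1 line stood close to KARPAS-299 or above it. The transcription factor BATF3 was at 13.97 ± 0.08 in KARPAS-299 and 13.08 ± 0.04 in HH, a difference of 0.89 ± 0.16 (SE) that fell short of the 2-fold limit. IRF4, a factor of activated lymphocytes, was at 12.98 ± 0.05 in KARPAS-299 and 12.72 ± 0.18 in HH (limma adjusted p = 0.133). TMOD1, which caps actin filaments, was lower in KARPAS-299 than in HH (10.08 ± 0.12 and 11.53 ± 0.08). CEBPB, a leucine zipper factor, exceeded the nearest line, HD-MAR-2, by only 0.60 ± 0.15 (SE).

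**Figure D1:**
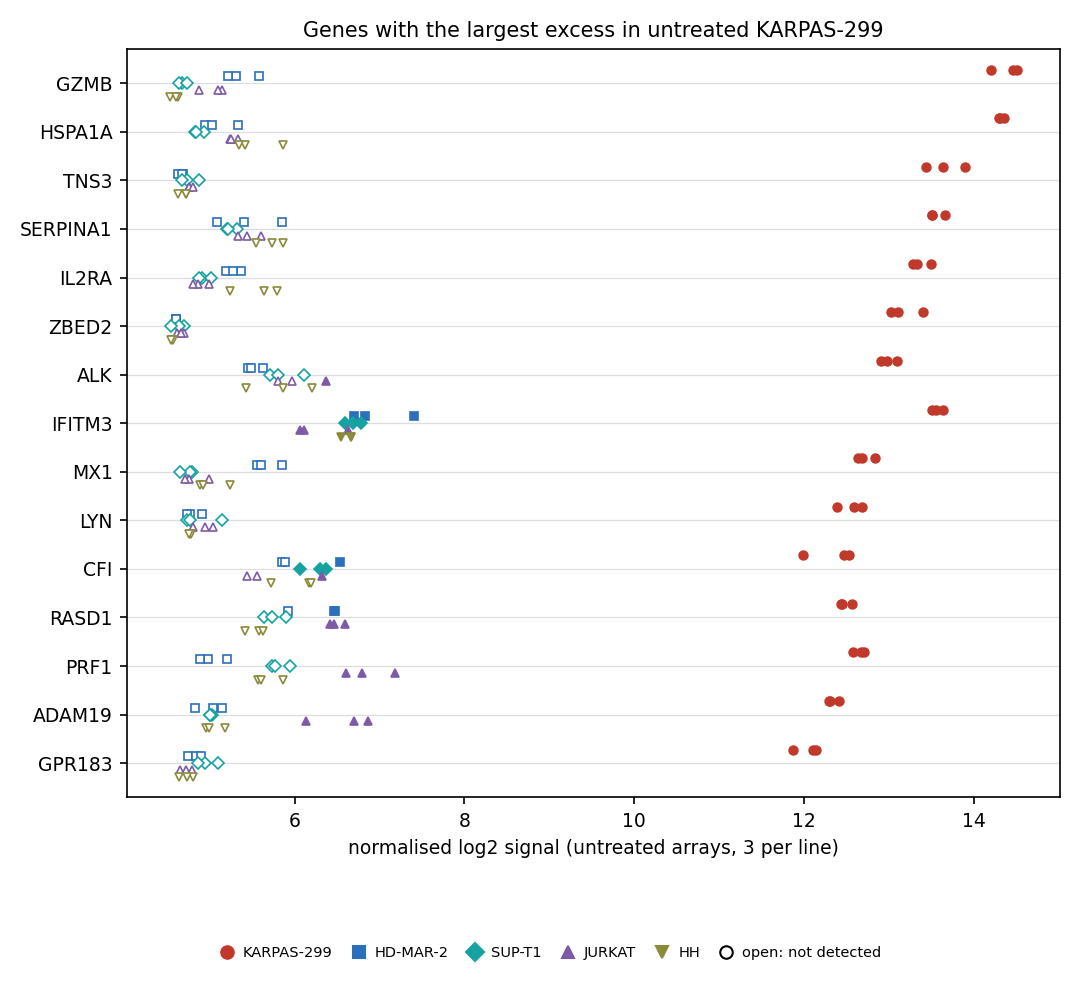
Normalised log2 signal of the 15 genes with the largest smallest excess in untreated KARPAS-299, 1 point per array and 3 arrays per line, with open points where the probe was not detected. All KARPAS-299 points lie to the right of all other points, and for GZMB, HSPA1A, TNS3, SERPINA1, IL2RA, ZBED2, MX1, LYN and GPR183 every point of the other lines is open.

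The gene with the largest excess was GZMB, which encodes granzyme B, a protease that cytotoxic lymphocytes deliver into target cells. Its levels were 14.20, 14.46 and 14.51 in KARPAS-299, against 4.53, 4.80 and 5.58 (lowest, median and highest) in the other lines. No array outside KARPAS-299 detected it, and the difference was at least 267-fold (largest limma adjusted p 5.58e-18). PRF1, the pore-forming protein perforin of the same granules, stood at 12.70, 12.67 and 12.57, against 4.89, 5.76 and 7.18 in the other lines. The groups did not overlap, and KARPAS-299 was 55.2-fold above JURKAT, the only other line with detected signal.

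Of 14 tested cytotoxic effector genes 6 were higher (42.9%, beside 6.11% of all genes) and 0 lower, with a median difference of 2.74. Of the list 23 had a probe, and GZMB, KLRC1 and FASLG passed the detection filter through KARPAS-299 alone. GZMA (granzyme A) averaged 12.15 ± 0.07 in KARPAS-299 and 8.47 ± 0.05 in JURKAT, the next line. The inhibitory natural killer receptor KLRC1 was at 10.15 ± 0.30 and was not detected elsewhere, where its line means lay between 5.23 and 5.48. The death ligand TNFSF10 (TRAIL) was at 11.06 ± 0.27, against 7.25 ± 0.36 in HH, and FASLG, the ligand of FAS, was at 7.74 and detected only in KARPAS-299.

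Several further genes of the highest rank belong to no single list. TNS3, a focal adhesion protein, had 13.64, 13.44 and 13.89 in KARPAS-299, against 4.63, 4.72 and 4.87 in the other lines, which was at least 160-fold. ZBED2, a zinc finger protein, had 13.10, 13.02 and 13.40, against 4.55, 4.61 and 4.70, which was at least 115-fold. Both were undetected on every array of the other lines. LYN, a Src-family kinase best known from B cells and myeloid cells, had 12.59, 12.39 and 12.68, against 4.73, 4.78 and 5.15. This was at least 74.6-fold, again with no detection in the other lines. LCK, the Src-family kinase of T cells, was not detected in KARPAS-299 (5.25, 5.71 and 4.99) or in HH (mean 5.17), whereas the other line means lay between 10.83 and 11.41.

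HSPA1A, a heat shock protein of the HSP70 family, was at 14.29, 14.30 and 14.35 in KARPAS-299 and undetected elsewhere (4.83, 5.24 and 5.87), a difference of at least 253-fold. HSPA1B encodes a nearly identical protein, and its probe gave a mean of 13.20 in KARPAS-299 and 11.69 in JURKAT, the nearest line. How far the probes of this pair read each other's transcript was not tested. The complement protease CFI, the small GTPase RASD1, the membrane protease ADAM19 and the oxysterol receptor GPR183 exceeded every other line by at least 64.0, 63.4, 54.6 and at least 52.2-fold.

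Genes of the JAK-STAT pathway of cytokine signalling were examined next. Whether the fusion kinase affects their levels here was not tested. Of 24 tested JAK-STAT genes and known STAT targets 9 were higher (37.5%, beside 6.11% of all genes) and 2 lower (8.33%, beside 2.81%). The median difference was 1.21. STAT3 itself had 11.33, 11.31 and 11.20 in KARPAS-299, against 8.63, 9.62 and 10.30 in the other lines. The ranges did not meet, all 3 probes were called, and the excess over JURKAT, the nearest line, was 1.15 ± 0.12 (SE, limma adjusted p = 5.5e-07). SOCS3, a feedback inhibitor of this pathway, was at 9.78, 9.91 and 9.63 and undetected in the other lines (4.90, 5.08 and 5.59), at least 10.8-fold. Its relative SOCS1 averaged 11.65 ± 0.06, against 8.64 ± 0.09 in HD-MAR-2.

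BCL3, an atypical member of the I-kappaB family, averaged 12.22 ± 0.07 in KARPAS-299 and 9.40 ± 0.15 in HH. STAT4 was at 10.75 ± 0.15, against 9.19 ± 0.07 in JURKAT. CISH was called from fitted values, but its bound was below 2-fold (6.69 in KARPAS-299 and undetected elsewhere). The 2 lower genes were PTPN6, the phosphatase SHP-1, at 8.72 in KARPAS-299 and 10.04 in JURKAT, and the survival gene BCL2L1.

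Of 23 tested cytokine receptor chains 7 were higher (30.4%, beside 6.11% of all genes) and 1 was lower (4.35%, beside 2.81%). Of the list 26 had a probe, and IL2RA, IL18R1, IL18RAP and IL13RA1 passed the detection filter through KARPAS-299 alone. IL2RA, the high-affinity chain of the interleukin-2 receptor, known as CD25, had 13.49, 13.33 and 13.28 in KARPAS-299, against 4.81, 5.11 and 5.79 in lines that did not detect it. This was at least 131-fold, on both probes. IL2RB, the signalling chain of the same receptor, was at 14.43 in KARPAS-299 and 13.39 in HH. IL2RG, the third chain and common to several receptors, was the 1 lower gene. It was undetected in KARPAS-299 at 5.08 and detected on all arrays of the other lines, whose means lay between 8.35 and 8.99.

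The 2 chains of the interleukin-18 receptor were detected only in KARPAS-299. IL18RAP averaged 11.51 ± 0.16 (at least 36.1-fold), and IL18R1 averaged 10.13 ± 0.27 (at least 13.9-fold). IL13RA1, a chain of the receptors for interleukins 4 and 13, had 11.49, 11.24 and 11.40, against 4.54, 4.65 and 4.75. IFNGR1, the ligand-binding chain of the interferon-gamma receptor, was detected in every line and averaged 12.39 ± 0.31 in KARPAS-299 and 10.09 ± 0.13 in HD-MAR-2.

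Of 19 tested cytokines and chemokines 7 were higher (36.8%, beside 6.11% of all genes) and 0 lower, with a median difference of 1.17. Of the list 38 had a probe, and IL7, CCL20 and LIF passed the detection filter through KARPAS-299 alone. IL22, which acts on epithelial cells, had 12.87, 12.33 and 12.67 in KARPAS-299, against 4.75, 4.97 and 9.73 in the other lines. HH was the only other line that detected it, at 9.47 ± 0.22. IL26, its neighbour on chromosome 12, averaged 10.89 ± 0.19 and was at least 23.6-fold higher. TNF had 11.26, 11.61 and 11.59, against 4.71, 5.19 and 7.70, with HH again the nearest at 7.56 ± 0.20. Oncostatin M (OSM) was at 9.78 ± 0.26, against 7.35 ± 0.40 in HH, and IL7, CCL20 and LIF were called but detected in no other line, LIF with a bound below 2-fold.

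Genes of antigen presentation by MHC class II formed the list with the highest share of calls, 10 of 15 (66.7%, beside 6.11% of all genes), with a median difference of 4.59. HLA-DRA, the alpha chain of HLA-DR, had 15.32, 15.14 and 15.26 in KARPAS-299, against 8.82, 9.96 and 13.88 in the other lines. HH, at 13.75 ± 0.14, was the nearest line for 9 of the 10 called genes and detected all 10. HLA-DRB1 stood at 14.76 ± 0.12 in KARPAS-299 and 12.91 ± 0.13 in HH, and was undetected in SUP-T1 and JURKAT. CIITA, the transactivator of these genes, was at 9.11 ± 0.16 in KARPAS-299, 7.95 ± 0.06 in HH and undetected in the other lines, and it was not called on the authors' log2 values.

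The invariant chain CD74 was not called, with 14.99 ± 0.13 in KARPAS-299 and 14.69 ± 0.05 in HH (limma adjusted p = 0.118). IFI30, a lysosomal thiol reductase, was the 1 called gene of this list whose nearest line was another, JURKAT, at 9.97 ± 0.12 in KARPAS-299 against 8.04 ± 0.20. HLA-DRB3 and HLA-DRB4 are carried by some haplotypes only and resemble HLA-DRB1, and how far their probes cross-react was not tested. None of 17 tested class I genes was called in either direction (0 to 1 over the alternatives, limma), although their median difference was 1.25. Of all genes 6.11% were called higher and 2.81% lower. B2M, the class I light chain, had a mean of 15.22 in both KARPAS-299 and HH.

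Of 31 interferon-stimulated genes tested 8 were higher (25.8%, beside 6.11% of all genes) and 0 lower, with a median difference of 1.20. MX1, a GTPase that restricts viruses, had 12.68, 12.63 and 12.83 in KARPAS-299, against 4.65, 4.91 and 5.85 in lines that did not detect it (at least 83.2-fold). IFITM3, a membrane protein that blocks virus entry, had 13.50, 13.63 and 13.55, against 6.07, 6.66 and 7.41, a 95.6-fold excess over HD-MAR-2. Its neighbours IFITM1 and IFITM2 were both at 14.29, 4.30 and 5.97-fold above their nearest lines, HD-MAR-2 and JURKAT. These 3 genes are similar in sequence, and cross-reaction of their probes was not tested. GBP2 averaged 11.20 ± 0.13, against 8.01 ± 0.07 in SUP-T1. Of 23 tested co-stimulatory and checkpoint genes 4 were higher (17.4%, beside 6.11% of all genes). Among them were HAVCR2 (TIM-3), at 11.21 ± 0.08 in KARPAS-299 and 7.56 ± 0.27 in SUP-T1, and CD86, at 9.90 ± 0.10 in KARPAS-299 and 7.86 ± 0.25 in HH.

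**Figure D2:**
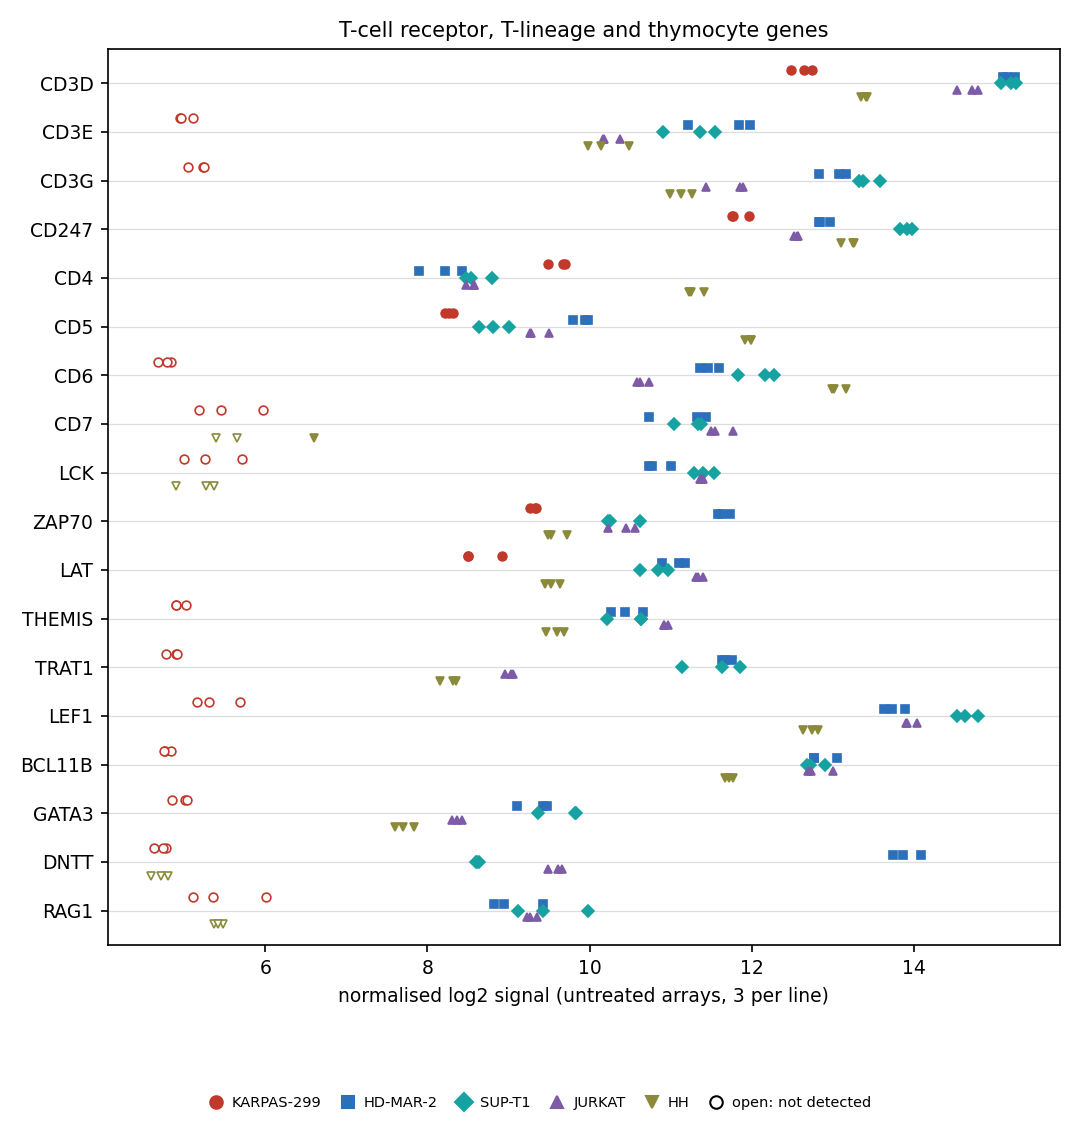
Normalised log2 signal of 18 genes of the T-cell receptor apparatus, the T lineage and thymocytes on the 15 untreated arrays, with open points where the probe was not detected. CD3E, CD3G, CD6, THEMIS, TRAT1, LEF1, BCL11B and GATA3 were undetected in KARPAS-299 alone, CD7, LCK, DNTT and RAG1 also had low levels in HH, and CD3D, CD247, CD4, CD5, ZAP70 and LAT were detected in all lines.

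The T-cell receptor complex showed the opposite pattern. Of 32 tested genes of the receptor and its proximal signalling 0 were higher and 8 were lower (25% of the list, beside 2.81% of all genes), with a median difference of -1.64. In all, 15 of the 32 were undetected on every KARPAS-299 array, 7 of them among the 8 lower genes. The share of all genes tested that KARPAS-299 did not detect was not counted. The 15 are therefore not read as a trait of this line. CD3G, a signalling chain of the receptor, had 5.23, 5.05 and 5.24 in KARPAS-299, against 10.99, 12.36 and 13.58 in the other lines. CD3E had 4.95, 4.96 and 5.11, against 9.98, 10.70 and 11.98. Neither was detected in KARPAS-299, and the differences were at least 27.5-fold and at least 14.5-fold.

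CD6, a scavenger receptor on T cells, had 4.67, 4.83 and 4.79 in KARPAS-299, against 10.58, 11.71 and 13.16, at least 19.8-fold lower. THEMIS, a signalling protein of thymocyte selection, was at least 9.46-fold lower. The adaptor TRAT1 was at least 3.82-fold lower by 1 of its 2 probes, and its second probe was not called. The adhesion receptor CD2 was undetected at 5.36, with SUP-T1 the nearest at 8.09, and RASGRP1, which links the receptor to RAS, was undetected at 4.83, against 8.03 in SUP-T1. Of the 8 lower genes only PLCG1, a phospholipase, was detected in KARPAS-299, at 9.08 against 10.34 in JURKAT. FYB1, an adaptor outside the list, was detected in every line and was 12.4-fold lower than in HH.

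Not every chain was lost. CD3D had 12.49, 12.75 and 12.65 in KARPAS-299, below all 12 other arrays (13.35, 14.93 and 15.27), but the difference from HH was only -0.77 ± 0.11 (SE), and 1 of its 3 probes was called lower. CD247, the zeta chain, had 11.77, 11.97 and 11.76, against 12.53, 13.03 and 13.98, with both probes short of the limit. The kinase ZAP70 was at 9.31 ± 0.04 in KARPAS-299 and 9.58 ± 0.12 in HH (limma adjusted p = 0.0837). The co-receptor CD4 lay within the range of the other lines, at 9.62 ± 0.11, with HH at 11.29 ± 0.10 and the remaining lines between 8.18 and 8.61. CD7, which mature T-cell tumours often lose, was undetected in KARPAS-299 (mean 5.54) and low in HH (5.88 ± 0.64), against at least 11.17 in the remaining lines.

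Transcription factors of the T lineage split in both directions. Of 30 tested genes 4 were higher (13.3%, beside 6.11% of all genes) and 4 lower (13.3%, beside 2.81%). LEF1, a partner of beta-catenin that acts in early T cells, had the largest deficit among the named genes by the smallest of its 4 bounded differences, whereas by the mean of the 4 lines MAL lay lower (-8.56, against -8.39 for LEF1). LEF1 had 5.16, 5.30 and 5.69 in KARPAS-299, against 12.64, 13.90 and 14.79 in the other lines, at least 84.1-fold (largest limma adjusted p 1e-16). BCL11B, which commits progenitors to the T lineage, had 4.76, 4.84 and 4.75, against 11.67, 12.72 and 13.05, at least 41.6-fold. GATA3, a factor of T-cell development and of type 2 helper cells, had 4.85, 5.01 and 5.03, against 7.6, 8.77 and 9.83. None of these 3 was detected in KARPAS-299, and each was detected on all 12 other arrays.

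The 4 higher factors were ID2, PRDM1, TOX2 and NFIL3. ID2, an inhibitor of E proteins, averaged 13.29 ± 0.11 in KARPAS-299 and 9.27 ± 0.21 in JURKAT. PRDM1 (BLIMP-1), a repressor that drives the final differentiation of lymphocytes, had 12.40, 11.99 and 12.32, against 4.70, 5.64 and 9.90, with HH the nearest at 9.82 ± 0.07 and all 4 probes called. TOX2 averaged 13.37 ± 0.14 and JURKAT 10.87 ± 0.01, while its relative TOX was lower in KARPAS-299 than in HH (7.06 and 8.13). NFIL3, a leucine zipper repressor, had a mean of 11.96, against 10.10 in JURKAT.

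Of 20 tested genes of thymocytes 0 were higher and 3 lower (15%, beside 2.81% of all genes). The median difference was -2.40. In KARPAS-299 15 of the 20 were undetected, 2 of them among the 3 lower genes, again without a share over all genes to set beside them. MAL, a proteolipid of lymphocyte membranes, had 4.75, 4.86 and 4.88, against 11.65, 13.29 and 15.44, at least 40.3-fold lower. ADA (adenosine deaminase) was detected in every line, with 10.02, 10.26 and 9.84 in KARPAS-299, against 12.15, 14.61 and 15.26. LYL1, a basic helix-loop-helix factor, was the third, undetected in KARPAS-299 (5.91 ± 0.13) and at 6.92 ± 0.25 in SUP-T1. Its bound was 1.49-fold, and its call was lost on the authors' log2 values, with median scaling over detected probes and without single arrays. DNTT, the template-free polymerase of antigen receptor rearrangement, and RAG1 of the recombinase were undetected in KARPAS-299 and in HH alike (DNTT 4.71 ± 0.07 and 4.70 ± 0.10). They could therefore not be called, although HD-MAR-2, SUP-T1 and JURKAT detected both on every array. None of 14 NOTCH pathway genes was called (0 to 1 over the alternatives, limma), beside 6.11% higher and 2.81% lower of all genes. For a list of 14 genes, 0 calls is close to those shares. NOTCH1 was at 11.31 ± 0.24 in KARPAS-299, within line means of 9.12 to 14.38.

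**Figure D3:**
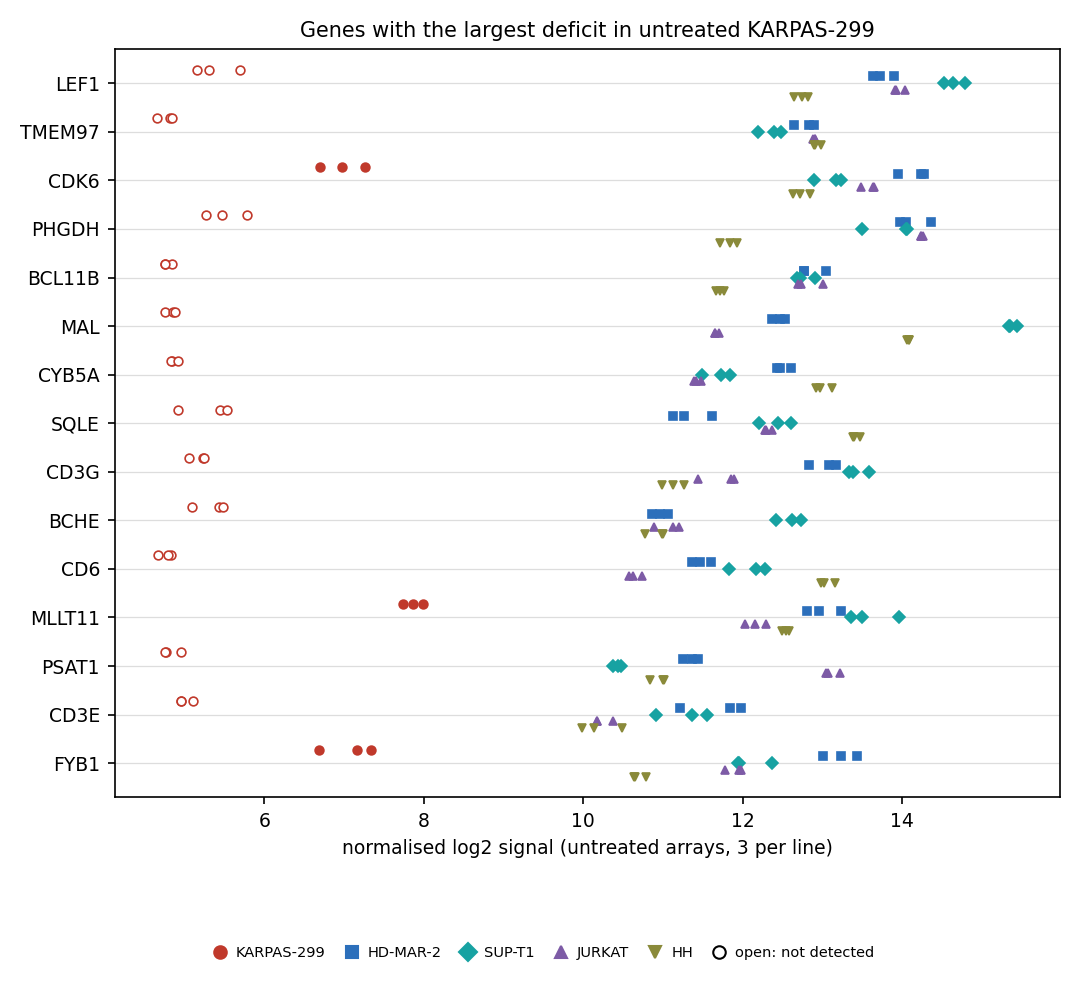
Normalised log2 signal of the 15 genes with the largest smallest deficit in untreated KARPAS-299, 1 point per array, with open points where the probe was not detected. All KARPAS-299 points lie to the left of all points of the other lines, which are all filled. CDK6, MLLT11 and FYB1 were the genes detected on all 3 KARPAS-299 arrays.

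Among the 15 largest deficits were PHGDH, PSAT1, SQLE, TMEM97, CYB5A and BCHE, which belong to none of the lists. PHGDH, the first enzyme of serine synthesis, had 5.27, 5.78 and 5.47 in KARPAS-299, against 11.72, 14.05 and 14.37, at least 45-fold lower. PSAT1, the next enzyme, had 4.96, 4.77 and 4.76, against 10.38, 11.13 and 13.22, at least 17-fold lower. Both were undetected in KARPAS-299, whereas PSPH, the last enzyme of the pathway, was not called (10.01, with line means from 10.04 to 10.62). The sterol synthesis enzyme SQLE had 4.92, 5.45 and 5.53, against 11.13, 12.33 and 13.47, at least 32-fold lower on both probes. TMEM97, the sigma-2 receptor, was at least 64.5-fold lower on 1 probe, but its second probe read 9.41 in KARPAS-299 and 9.67 to 10.08 in the other lines and was not called. CYB5A (cytochrome b5) and BCHE (butyrylcholinesterase) were at least 34.0-fold and at least 23.9-fold lower, each on both probes.

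Glycolysis genes were called in the higher direction only. Of 22 tested glycolysis genes 5 were higher (22.7%, beside 6.11% of all genes) and 0 lower, with a median difference of 0.44. The glucose transporter SLC2A3 had 13.75, 13.79 and 14.07 in KARPAS-299, against 8.50, 9.64 and 12.04 in the other lines, and SLC2A1 averaged 12.63 ± 0.12, against 10.70 ± 0.06 in SUP-T1. PFKFB3 and PFKFB4, which make the activator of phosphofructokinase, were 6.63 and 4.85-fold above JURKAT. Aldolase C (ALDOC) averaged 13.74 ± 0.24, against 12.34 ± 0.17 in HH. Of 18 genes of glutathione and xenobiotic metabolism 4 were higher (22.2%, beside 6.11% of all genes) and 0 lower, with a median difference of 1.49. The quinone reductase NQO1 was at 11.25 ± 0.10 in KARPAS-299 and 9.44 ± 0.10 in HH, and the drug efflux pump ABCG2, at 7.02 ± 0.06, was undetected elsewhere, with a bound of 1.61-fold, below 2-fold.

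Of 16 cyclins, kinases and inhibitors of the G1 phase 1 was called, as lower (6.25%, beside 2.81% of all genes). The called gene was CDK6, a kinase that drives entry into the cell cycle. It had 6.97, 6.70 and 7.26 in KARPAS-299, against 12.63, 13.35 and 14.27, 53.9-fold below HH (largest limma adjusted p 4.01e-15). In the BCL2 family 3 of 18 genes were higher (16.7%, beside 6.11% of all genes) and 3 lower (16.7%, beside 2.81%). The anti-apoptotic MCL1 averaged 12.92 ± 0.16, against 11.34 ± 0.12 in SUP-T1, and BCL2L2 averaged 9.57 ± 0.13, against 8.19 ± 0.01 in HH. BCL2A1, also anti-apoptotic, was at 7.44 ± 0.29 and undetected elsewhere, at least 2.15-fold, but was not called on the authors' log2 values. The anti-apoptotic BCL2L1 (BCL-XL) was lower, at 10.33 ± 0.14, against 11.39 ± 0.17 in HH, a call that median scaling removed. The pro-apoptotic BCL2L11 (BIM) and BIK were called lower from fitted values, but their bounds allowed no fold change, since both were undetected in KARPAS-299 and in 1 of the other lines (HH for BCL2L11 and SUP-T1 for BIK).

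**Figure D4:**
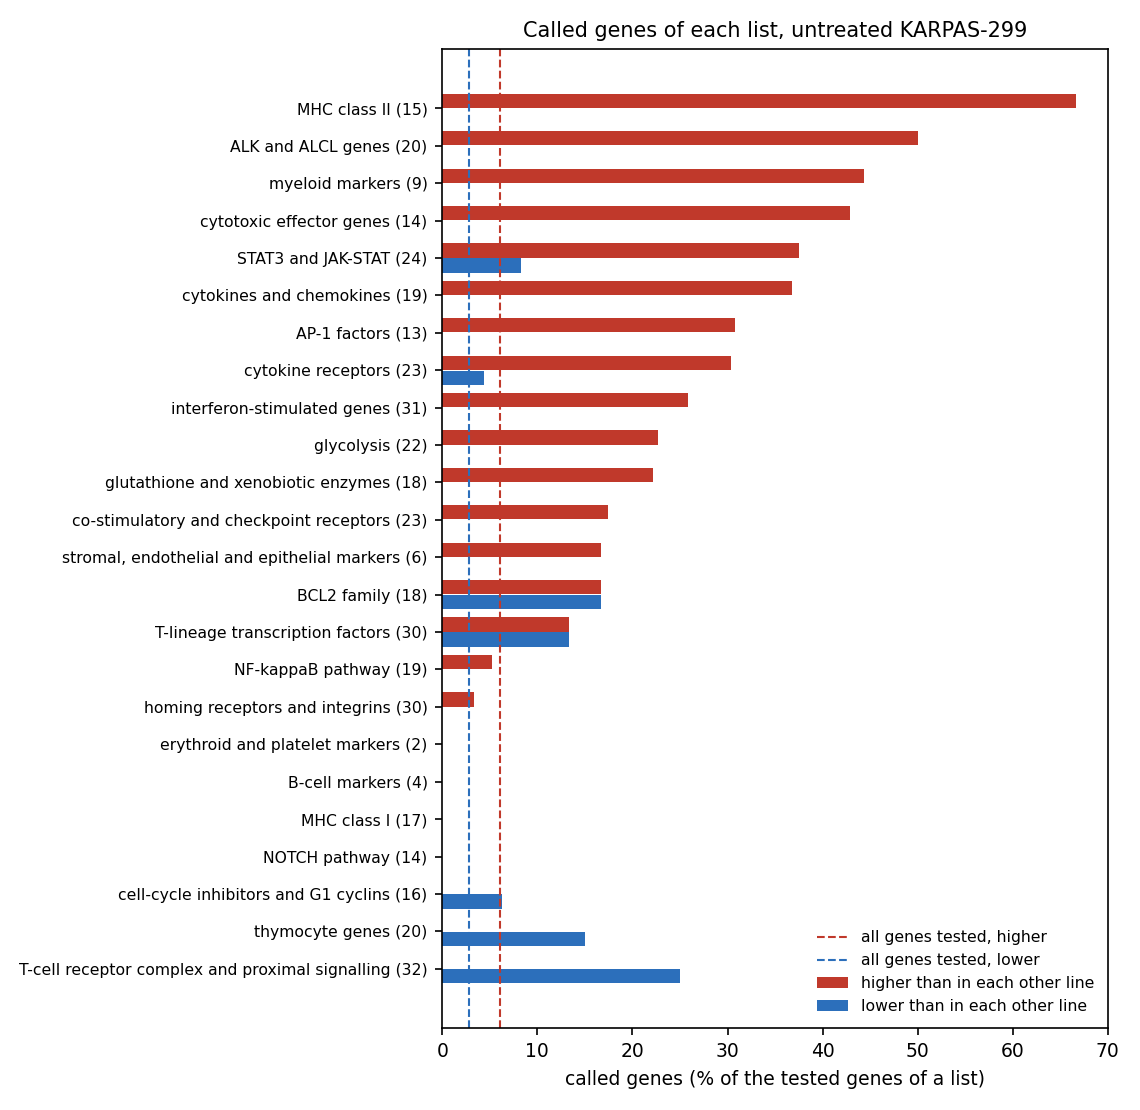
Share of the tested genes of each of 24 lists that were higher (red) or lower (blue) in untreated KARPAS-299 than in each other line, with the number of tested genes in parentheses and dashed lines at the shares over all genes tested (6.11% and 2.81%). MHC class II genes had the highest share of higher genes (66.7%) and the T-cell receptor list the highest share of lower genes (25%).

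Of 13 tested AP-1 factors, which bind DNA as leucine zipper pairs, 4 were higher (30.8%, beside 6.11% of all genes) and 0 lower. JUNB had 10.96, 10.74 and 10.68 in KARPAS-299, against 6.88, 7.22 and 8.99 in the other lines. BATF was at 10.83 ± 0.23 in KARPAS-299 and 9.83 ± 0.17 in HH, FOSL1 at 7.46 ± 0.11 and not detected beyond 1 array elsewhere, and FOSL2 at 7.63 ± 0.23, against 6.48 ± 0.33 in SUP-T1. BATF, FOSL1 and FOSL2 were not called with the authors' normalised values. The AP-1 site TGANTCA, which reads the same on both strands, was searched in the 250 bases before the RefSeq starts of the tested genes (9580 of 11955 matched). It occurred in 11% of the higher genes (62 of 564 matched), 5.88% of the lower genes (16 of 272) and 6.14% of all tested genes. For TGAGTCA on either strand, which is contained in the first motif, the shares were 8.51%, 3.31% and 4.09%. The STAT site TTCCNGGAA occurred in 2.48% of the higher genes (14 of 564), 2.94% of the lower genes (8 of 272) and 1.28% of all tested genes. For its looser form TTCNNNGAA the shares were 8.51%, 9.93% and 7.28%.

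Windows from RefSeq promoters (build GRCh38.p14) are shown for 3 higher genes and 1 lower gene that carry the motif, with the letters of TGANTCA in capitals. They show that the letters stand near the start of genes of both directions, and a match is not a measured binding site. The GZMB window is chr14:24634378-24634424 (minus strand), with the motif 214 bases before the start. The PRDM1 window is chr6:106098879-106098925 (plus strand), 42 bases before the start. The CSF1R window is chr5:150113373-150113419 (minus strand), 34 bases before the start, and the GATA3 window is chr10:8060429-8060456 (plus strand), 8 bases before the start.
GZMB: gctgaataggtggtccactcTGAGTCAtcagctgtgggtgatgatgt
PRDM1: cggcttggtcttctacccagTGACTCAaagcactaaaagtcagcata
CSF1R: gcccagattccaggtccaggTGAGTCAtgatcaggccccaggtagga
GATA3: ttaagaagtggggtgcagctTGACTCAg

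Markers of other cell types were examined because KARPAS-299 carried several of them. Of 9 tested myeloid markers 4 were higher (44.4%, beside 6.11% of all genes). Of the list 17 had a probe, and S100A8 and ITGAX passed the detection filter through KARPAS-299 alone. CSF1R, the receptor of macrophage colony-stimulating factor, had 10.99, 11.30 and 11.29 in KARPAS-299, against 4.81, 5.14 and 7.34 in the other lines, with HH the only other line that detected it (7.17 ± 0.16). S100A9 averaged 9.96 ± 0.23 and S100A8 8.30 ± 0.33, which form the calprotectin pair, and the integrin ITGAX (CD11c) averaged 8.47 ± 0.31. In the other lines S100A9 was detected on 1 array, from JURKAT, and their highest levels were 6.57, 5.87 and 4.94 for S100A9, S100A8 and ITGAX. The summed signal of the 17 myeloid markers with a probe was 6240 to 7650 in KARPAS-299 and 1450 to 2930 in the other lines. Of these 17, 6 were detected on all KARPAS-299 arrays, and 10, including the defining CD14, SPI1, MPO, ITGAM, TYROBP and FCER1G, on none. The part of these markers in the other results was not tested. In bulk RNA of a culture, a moderate level in every cell and a high level in some cells cannot be told apart.

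None of 4 tested B-cell markers and of 2 erythroid and platelet markers was called. The keratin gene KRT18 was the 1 called gene of 6 stromal, endothelial and epithelial markers (16.7% higher, beside 6.11% of all genes). It was at 7.41 ± 0.08 and undetected elsewhere, so it passed the detection filter through KARPAS-299 alone. On the KARPAS-299 arrays BLK and CD79B were the detected B-cell markers of 11 with a probe, EPOR was the detected erythroid marker of 11, and ACTA2, KRT18 and PECAM1 were the detected stromal, endothelial and epithelial markers of 16. MS4A1, CD79A, PAX5, HBB, GATA1, COL1A1, EPCAM and VWF were among those not detected on any.

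The differences were then measured in cultures that the selection had not used, the 15 CHOEP-treated arrays of the same lines. The treated arrays of a line sat on the same chip as its untreated arrays, and all 30 arrays were normalised together. Calls shared by treated and untreated cultures therefore do not separate line from chip. By the same rule 653 genes (5.46%) were higher and 319 (2.67%) lower in CHOEP-treated KARPAS-299 than in each other treated line. Of these, 598 and 239 had also been called in untreated cells, which is 91.6% and 74.9% of the calls in treated cells and 81.9% and 71.1% of those in untreated cells. The sign of the mean difference was kept in treated cells by 713 of 730 higher and 329 of 336 lower genes. ALK was 7.37 above the mean of the other lines in treated cells and 7.17 above it in untreated cells. Of the 96 called genes that were followed by name, 87 were called again. The other 9 were BATF, BCL2A1, BCL2L1, FOSL2, ITGA6, LYL1, PRDM1, STAT3 and STAT4.

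Cultures of 1 line are not independent samples of a disease, so the 5 line means were also used as the replicates, 1 against 4. With 3 residual degrees of freedom, 170 genes were higher and 20 lower at a limma adjusted p under 0.05, all of them among the genes called above. The lowest adjusted p was 0.008853.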

How the data were processed

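Expression was measured on Illumina HumanHT-12 v4 BeadChips. The authors deposited raw BeadStudio intensities (version 3 in the submitters' processing notes), not normalised, together with detection p-values that set each probe against negative controls. A second deposited table holds the authors' log2 values from the lumi package (robust spline normalisation, array medians 6.71 to 6.74), and it served as an alternative. The correlation between the log2 of the intensities and these values was never under 0.9977 on an array. Groups came from the sample labels. Median intensities lay between 81.1 and 122.6 over the 30 arrays.

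The intensities of 47323 probes went through neqc of limma 3.58.1 in R 4.3.3 (background estimated from detection p-values, quantile normalisation, offset 16, log2), all 30 arrays at once. Quantile normalisation gives every array the same distribution, so a shift of all genes in 1 line would not be seen. A probe was kept when at least 3 of the 15 untreated arrays gave it a detection p under 0.01, which left 21201 probes, 16271 of them with 1 gene symbol in the GEO platform annotation. Over all probes with values, 30113 had 1 symbol, 8 had several and 17202 had none; Entrez numbers linked 30074 to the reference. The probe with the highest mean stood for its gene, for 11955 genes in all. CLU and CD274 failed the filter, and TCF7 was not analysed here.

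A limma model with 1 mean per line (10 residual degrees of freedom) gave each comparison, with Benjamini-Hochberg adjustment over all kept probes. An interaction model on all 30 arrays compared differences between treated and untreated cultures. The model was tested on simulated data. Genes were named if they were on a list of expected genes, among the 15 largest called differences in each direction with clear detection, or among up to 5 called genes of each of 24 gene lists, and a few further members of the lists and relatives of named genes were added after their values were seen. The members and lists were chosen with earlier results of these data known. The number of arrays limits the precision, and SDs of named genes are over 3 cultures. Alternatives were the normalisation, the background correction, the detection filter, the probe per gene, the variance model, the arrays in the fit, the fold threshold, the replicate number as a block, line means as replicates, and leaving out each array. Motifs were counted in RefSeq promoters, a gene counting when any of its starts had a match, and TGAGTCA was added after the counts of TGANTCA were seen.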

Additional observations from a re-analysis of the deposited data

Results flagged for a closer look

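For 14 of 113 named genes the difference of KARPAS-299 from the mean of the 4 other lines was not the same in CHOEP-treated and in untreated cultures, by at least 1 on the log2 scale (limma interaction, adjusted p under 0.05). At any size, 45 genes had an adjusted p under 0.05. The change, treated minus untreated, was negative for all 14. Many named genes were picked for a large untreated difference, and the same untreated arrays enter this comparison. A smaller treated difference is thereby favoured for genes high at baseline, so the shared sign is not an independent result.

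GZMB lay 7.57 above the other lines in treated and 9.47 in untreated cultures, a change of -1.91 (limma adjusted p = 7.96e-11). The feedback inhibitor SOCS1 lay 2.13 above them in treated and 3.88 in untreated cultures (-1.74), and STAT4 1.57 in treated and 2.63 in untreated cultures (-1.07). For the cytokine TNF the difference was 4.13 in treated and 5.83 in untreated cultures (-1.69), and for IL26 it was 4.69 treated and 5.71 untreated (-1.02). ZBED2 lay 6.77 above the other lines in treated and 8.56 in untreated cultures (-1.79, limma adjusted p = 3.49e-13).

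Among surface proteins, ADAM19 had a difference of 5.59 treated and 6.93 untreated (-1.34), GPR183 of 6.20 treated and 7.23 untreated (-1.03), and the laminin receptor chain ITGA6 of 0.83 treated and 2.51 untreated (-1.68). The calprotectin gene S100A8 had 1.74 treated and 3.03 untreated (-1.28), and S100A9 had 3.27 treated and 4.76 untreated (-1.49). BCL2A1 had 0.88 treated and 1.98 untreated (-1.09), and PFKFB4 had 1.87 treated and 3 untreated (-1.12).

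CDK6 was the only one of the 14 that was lower in KARPAS-299 at baseline. Its difference was -8.35 in treated and -6.42 in untreated cultures, a change of -1.94 (limma adjusted p = 3.89e-10).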

How the results depend on the processing

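None of the 96 called named genes had its differences from all 4 lines reversed under any alternative run. A change of sign against fewer lines would not have been counted, and named genes that were not called were not covered. Which direction held more calls changed with the fold threshold against each single line and against the mean. On the authors' own log2 values, and on quantile-normalised intensities that were not background-corrected, the genes lower than in each other line numbered 169 and 162 (main 336), and those lower than the mean of the 4 lines 1151 and 1109 (main 1800). BATF, BCL2A1, BCL2L11, CIITA, FOSL1, FOSL2 and LYL1 then missed the rule. Without a fold threshold 1328 genes were higher and 1252 lower than in each line, and at 4-fold 374 and 95. Without a fold threshold 3744 genes were higher and 4728 lower than in HD-MAR-2, 3646 and 4953 than in SUP-T1, 3439 and 4219 than in JURKAT, and 3669 and 3735 than in HH. At 4-fold these were 1057 and 867 for HD-MAR-2, 1127 and 895 for SUP-T1, 829 and 773 for JURKAT, and 890 and 603 for HH. Against the mean of the 4 lines there were 3606 higher and 4999 lower genes without a fold threshold, 841 and 529 at 4-fold, and 170 and 20 with line means as replicates. Median scaling lost the calls of BCL2L1 and FOSL2, and median scaling over detected probes that of LYL1. The median difference of the co-stimulatory list changed sign with the scaling (-0.03 to 0.46).

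With 1 untreated array left out at a time, 720 to 738 genes were higher and 321 to 362 lower than in each line. Against the mean the ranges were 1666 to 1698 and 1768 to 1826. Higher genes ranged from 2067 to 2121 against HD-MAR-2, 2097 to 2143 against SUP-T1, 1740 to 1786 against JURKAT and 1849 to 1885 against HH, and lower genes from 2334 to 2424, 2444 to 2498, 1902 to 1933 and 1627 to 1718. Of the named genes, BATF was lost without KARPAS-299 replicate 2 or 3 or HH replicate 2, BCL2L1 without KARPAS-299 replicate 3 or HH replicate 2, and LYL1 without KARPAS-299 replicate 3 or SUP-T1 replicate 2 or 3.

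The replicate number, which is also the array position, as a block gave 730 higher and 337 lower genes and changed no named call. The numbers did not pair the samples, since 2 of 12 same-numbered pairs with KARPAS-299 had a correlation of residuals over 0.1 (range -0.15 to 0.23). A chip block could not be fitted, because each line has its own chip. Genes near the detection floor (6.32 to 6.38 in KARPAS-299) have only bounds.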

Other observations

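The called genes were not spread evenly over the chromosomes. On chromosome 11, 41 of 686 tested genes (5.98%) were lower in KARPAS-299 than in each other line, among them CD3E, CD3G and CD6. This compares with 2.81% of all genes, and 34 (4.96%) were higher. On chromosome 16, 5 of 545 (0.917%) were lower and 38 (6.97%) higher, and on chromosome 22, 29 of 297 (9.76%) were higher. These shares are a description without a test.

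Homing receptors and integrins had 1 higher and 0 lower gene among 30 tested (3.33%, beside 6.11% of all genes), with a median difference of 0.19. ITGA6, the laminin receptor chain, averaged 7.92 ± 0.13 (SD, n = 3) in KARPAS-299 and 6.11 ± 0.23 in HD-MAR-2, the next line. Of 19 NF-kappaB pathway genes BCL2A1 alone was higher (0 to 2 genes over the alternatives), and the median difference was 0.56. That share of 5.26% lay near the 6.11% of all genes.

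MLLT11 (AF1q), a cofactor first found in a leukaemia fusion, was detected in every line and was 19.7-fold lower in KARPAS-299 than in JURKAT, with 7.99, 7.74 and 7.86 in KARPAS-299, against 12.03, 12.70 and 13.96 (lowest, median and highest) in the other lines.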
